A study of Homo sapiens with 6 samples.

Results

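The 5 genes described here belong to the BCL2 family of cell death regulators, and comprise the pro-apoptotic genes BAX, BBC3 and BAD and the anti-apoptotic genes BCL2L1 and BCL2. They were taken by name from the 758 genes of the deposited table, which held all 5. JIMT-1, the cell line used, is an established human breast cancer line with amplified HER2, widely used as a model of tumors that trastuzumab no longer controls. The CTL group held 3 samples given the vehicle PBS, and the aCT1 group held 3 samples given 250 µM of the peptide aCT1, each for 24 h. aCT1 is a mimetic of the end of the gap junction protein connexin 43 that enters cells by means of a fused antennapedia peptide, and it carried a biotin tag. No control peptide was among the samples, so the comparison is between the peptide and its vehicle. The labels do not say whether the 3 samples of a group were separate cultures, and p-values measure only the spread between these samples, which may be technical.

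The proteins of this family meet at the outer membrane of the mitochondrion. BAX forms pores there that let cytochrome c escape and set off the caspases. BCL2 and the long protein form of BCL2L1, known as BCL-xL, hold BAX in check. BBC3, also called PUMA, and BAD are sensor proteins that carry only the BH3 segment of the family and can occupy the anti-apoptotic proteins. BAX and BBC3 are textbook transcriptional targets of p53, while BAD is controlled mainly by phosphorylation. The comparison here is of these transcripts, and of their ratios, between aCT1 and its vehicle at 24 h. The study singled out BAX and BBC3 from these same samples.

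RNA was hybridized to barcoded probes that the nCounter instrument counts singly, and the authors scaled each sample to housekeeping genes. The values are called normalized counts, with 1 value per gene. The count of barcodes before scaling could be recovered and ran from 1437572 to 1494919 per sample over the genes of the table. Of the epithelial and HER2 marker genes chosen for JIMT-1, 5 of 9 were measured, and their means ran from 3347 normalized counts for KRT5 to 9985 for GRB7. The median over these 5 genes was 7259.9 to 7612 in CTL and 7866 to 8177 in aCT1, and their summed level was 34522 to 36530 and 35842 to 38723. That median was higher in every aCT1 sample than in every CTL sample, and its part in the members' values was not tested. Of the lymphoid and mast cell genes, which such a line should lack, 15 of 31 were measured, with means from 8.18 to 29.2. Their summed level was 208 to 271 in CTL and 219.7 to 292 in aCT1. Of the endothelial and stromal genes, 8 of 12 were measured, with means from 9.17 to 67.1, and their summed level was 182 to 193 in CTL and 167 to 186 in aCT1. As RNA came from whole cultures, fewer cells expressing a gene and less RNA per cell cannot be told apart. Each gene has a probe of its own, and probes can differ in efficiency. Fold changes and ratios were therefore compared between samples, and a gene's level was set beside that of other genes only to see whether it stood above genes the line should lack.

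BAX was higher in every aCT1 sample than in every CTL sample, by a small amount. Its CTL samples had 3656, 3749.7 and 3689 normalized counts, and its aCT1 samples had 3795, 3972 and 3892. The nearest samples of the groups, CTL replicate 2 and aCT1 replicate 1, were closer to each other than CTL replicates 1 and 2 were. The means were 3698 ± 47.7 in CTL and 3886 ± 88.4 in aCT1 (SD, n = 3 each). The log2 fold change of BAX was 0.071 (95% interval 0.0077 to 0.14), a difference of 5.08%. In limma over all genes of the table, the unadjusted p was 0.0307 and the adjusted p was 0.405, so BAX did not pass the threshold. Centring samples on their median gene takes 0.098 from every gene's log2 fold change, which puts BAX at -0.026 and the median gene at -0.080. The sign of BAX was thereby reversed, with an unadjusted limma p of 0.622. A shift equal for all genes cannot change the order of BAX and the median gene.

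BBC3 had the largest relative difference of the pro-apoptotic members. CTL samples had 250.5, 274 and 276 normalized counts of BBC3, and aCT1 samples had 307, 333 and 291. All aCT1 values lay above all CTL values, with CTL replicate 1 the lowest and aCT1 replicate 2 the highest. The means were 267 ± 14.4 in CTL and 310.5 ± 21.0 in aCT1 (SD, n = 3 each). The log2 fold change of BBC3 was 0.22 (95% interval 0.050 to 0.38), a difference of 16.2%, with an unadjusted p of 0.0147 and an adjusted p of 0.313 in limma. Among the 433 genes with a mean of at least 50 normalized counts, 2.31% had a log2 fold change at or above that of BBC3, and 21% had one at or above that of BAX. These shares include the member itself, and genes with fewer counts than a member carry larger counting errors.

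BAD, whose protein binds BCL-xL when it is not phosphorylated, showed no such separation. CTL samples had 1162.5, 1218 and 1179 normalized counts of BAD, and aCT1 samples had 1179, 1258 and 1168. The groups overlapped, and replicate 2 was the highest sample of each. The log2 fold change of BAD was 0.018 (95% interval -0.073 to 0.11), with a limma adjusted p of 0.965. In percent, the interval of BAD ran from -4.93% to 7.79%.

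BCL2L1 was the anti-apoptotic gene measured well above the level of absent genes, and it varied least. Its CTL samples had 7562, 7586 and 7476.5 normalized counts, and its aCT1 samples had 7672, 7520.4 and 7687. The groups overlapped, since aCT1 replicate 2 was below the first and second CTL samples. The log2 fold change of BCL2L1 was 0.016 (95% interval -0.038 to 0.070), with a limma adjusted p of 0.965. The table gives no separate values for the long and the short splice form of BCL2L1, whose proteins have opposite effects on survival.

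BCL2 itself was at the level of genes that this line should lack. CTL samples had 16.6, 16.9 and 28.1 normalized counts of BCL2, and aCT1 samples had 34.0, 8.97 and 17.4. The aCT1 group held both the highest and the lowest sample, and the groups overlapped fully. These values rested on 9 to 34 recovered barcodes. The mean of BCL2 was 20.6 ± 6.56 in CTL and 20.1 ± 12.8 in aCT1 (SD, n = 3 each), and 3 of the 15 lymphoid and mast cell genes had a mean at least as high over the 6 samples. In aCT1 replicate 2, 13 of those 15 genes were at or above BCL2, and in aCT1 replicate 1 it was 1 of 15. The log2 fold change of BCL2 was -0.19 (95% interval -1.10 to 0.71), with a limma adjusted p of 0.965. In percent, this interval ran from -53.3% to 63.8%, and a difference within it was not resolved by these samples. Its sign turned to 0.055 without CTL replicate 3 and to 0.29 without aCT1 replicate 2.

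**Figure D1:**
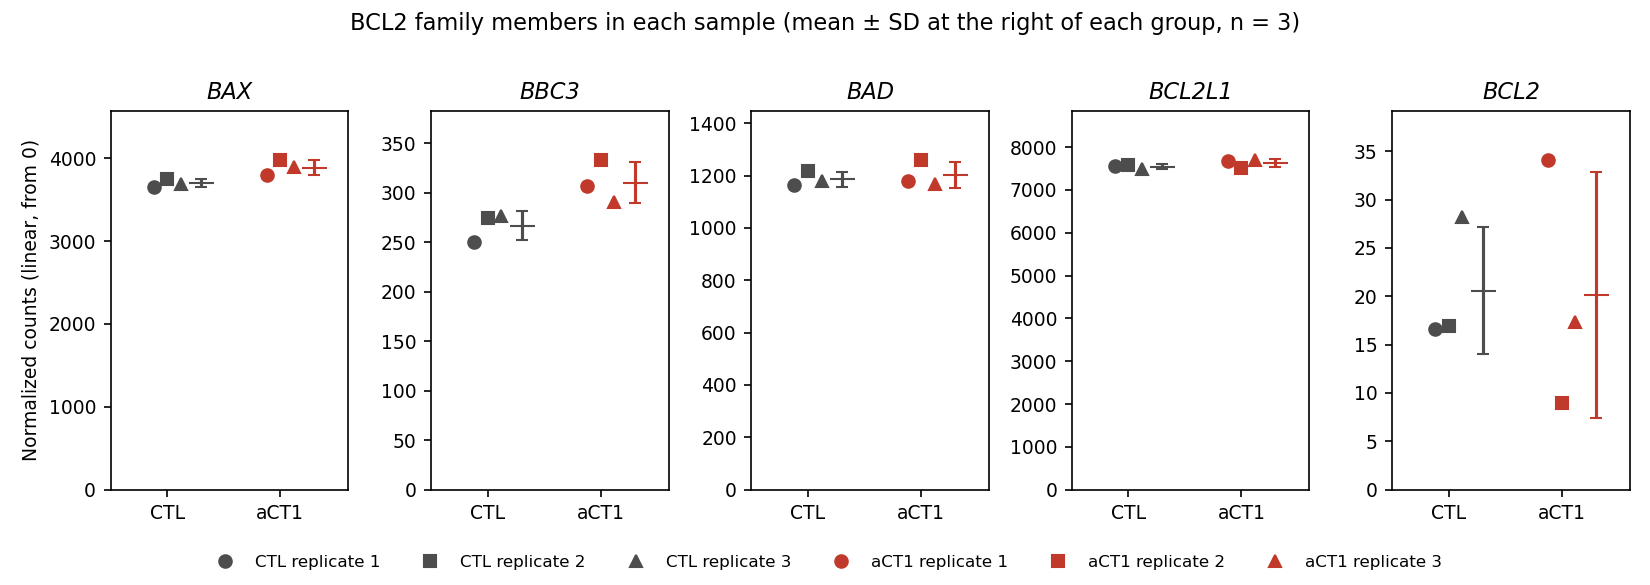
Normalized counts (vertical axis, linear and from 0, with its own range per gene) of each BCL2 family member in the 3 CTL and 3 aCT1 samples, with mean and SD beside each group. BAX and BBC3 points of aCT1 all lie above those of CTL, BAD and BCL2L1 overlap, under the authors' scaling, and BCL2 spreads from 8.97 to 34.0 within the aCT1 group.

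**Figure D2:**
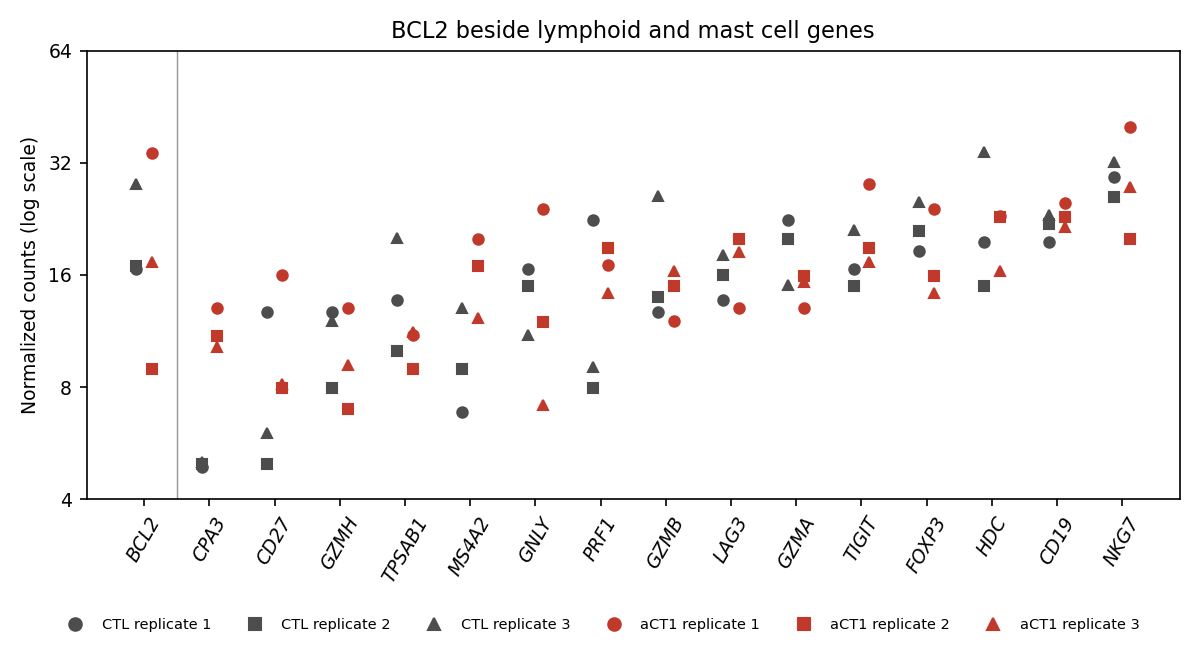
Normalized counts (log scale) in each sample for BCL2, left of the line, and for the 15 lymphoid and mast cell genes measured, ordered by their mean. BCL2 lies within the range of these genes in all 6 samples.

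Over all 758 genes, limma gave an adjusted p under 0.05 for 0 genes, or 0% of those tested, and an unadjusted p under 0.05 for 71 genes. On the recovered barcode counts, the quasi-likelihood test of edgeR also gave 0 genes after adjustment and 71 before it. DESeq2 gave 2 after adjustment and 41 before it, and no member was among these 2 or 41. The edgeR unadjusted p, at the authors' scaling, was 0.0286 for BAX and 0.0135 for BBC3. In DESeq2, which scaled the samples itself, the unadjusted p was 0.127 for BAX and 0.0597 for BBC3. In limma, the smallest adjusted p among the members was 0.313, for BBC3. At an unadjusted limma p under 0.05, BAX and BBC3 were the 2 of 5 members that passed, both higher in aCT1, where 6.46% of all genes passed in that direction and 2.9% in the other. These members, 2 of 5, also had groups that did not overlap, beside 14.2% of all genes in either direction, 9.37% with the aCT1 samples higher and 4.88% with them lower. Among genes with a mean of at least 50 normalized counts, the share with all aCT1 samples higher was 12.9%, and 4 of the 5 members have such a mean. Since the study had picked BAX and BBC3 from these samples, these counts describe the members and are not independent evidence. The median log2 fold change was 0.018 over the 5 members and 0.018 over all genes of the table.

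**Figure D3:**
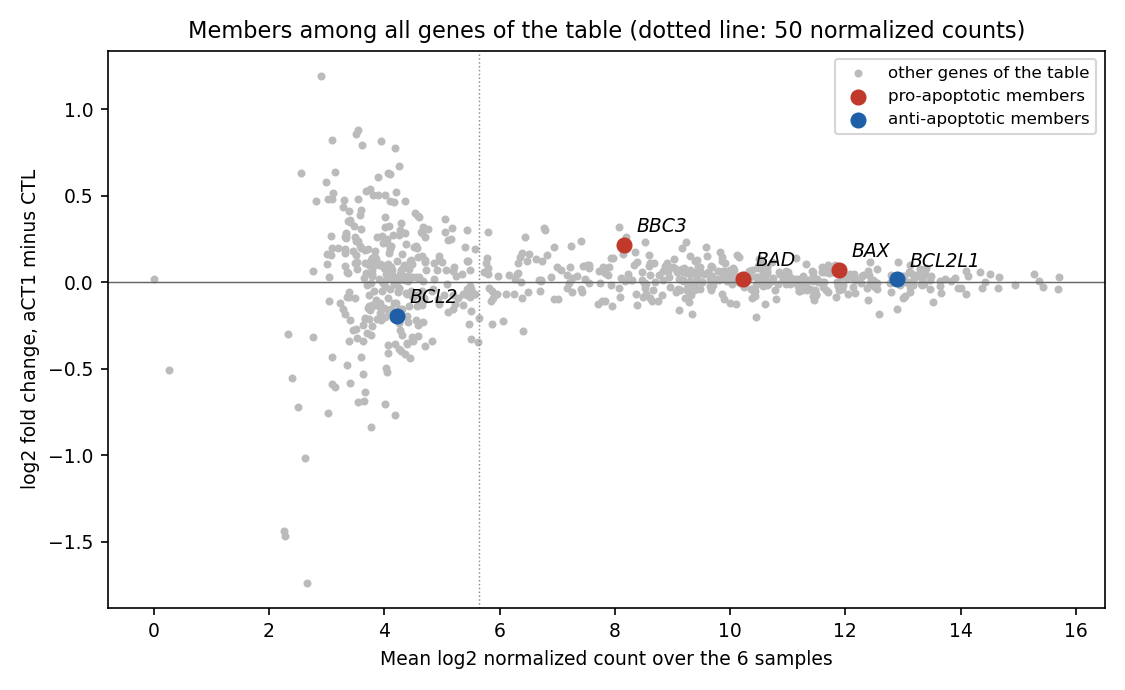
Log2 fold change of aCT1 against CTL (vertical axis) by the mean log2 normalized count over the 6 samples (horizontal axis) for all 758 genes, with the pro-apoptotic members in red and the anti-apoptotic members in blue. BBC3 lies near the upper edge of genes of similar level, BAX, BAD and BCL2L1 lie within the band of genes with many counts, and BCL2 lies among the widely scattered genes left of 50 normalized counts.

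For 4 of the members, the spread between samples of a group was close to what counting barcodes alone gives. The within-group SD on the log2 scale was 0.027 for BAX, which is 1.14 times the counting error, and 1.04, 1.14 and 0.884 times it for BBC3, BAD and BCL2L1. For BCL2 the within-group SD was 0.75 on the log2 scale, or 2.13 times its counting error of 0.35. BBC3, with 256 to 334 barcodes, carried a counting error of 0.079 to 0.090 on the log2 scale in each sample. BAX, with 3669 to 3986 barcodes, carried 0.023 to 0.024.

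The ratio of a pro-apoptotic to an anti-apoptotic transcript within a sample does not depend on the factor by which that sample was scaled. Its absolute value depends on both probes and has no meaning alone, so ratios were compared between samples. The ratio of BAX to BCL2L1 was 0.483, 0.494 and 0.493 in CTL and 0.495, 0.528 and 0.506 in aCT1. All aCT1 ratios were above all CTL ratios, but the gap between CTL replicate 2 and aCT1 replicate 1 was far smaller than their counting errors. The ratio of BAX to BCL2L1 was higher in aCT1 by 0.055 on the log2 scale (standard error 0.029 from the replicates), or 3.91%. Without aCT1 replicate 2, in which this ratio was highest, the difference was 0.029.

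The ratio of BBC3 to BCL2L1 was 0.0331, 0.0361 and 0.0370 in CTL and 0.0401, 0.0443 and 0.0379 in aCT1. Again no sample of aCT1 fell within the CTL range, and aCT1 replicate 3 was the nearest to it. The difference was 0.20 on the log2 scale (standard error 0.081), or 14.9%. With 1 sample left out it lay between 0.14 and 0.25. The ratio of BAD to BCL2L1 was 0.154, 0.161 and 0.158 in CTL and 0.154, 0.167 and 0.152 in aCT1. These groups overlapped, and the difference was 0.0015 on the log2 scale (standard error 0.047).

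For BAX to BCL2L1 and BBC3 to BCL2L1, the two-sided exact permutation test of 3 against 3 gave p = 0.1, the smallest it allows, and for BAD to BCL2L1 it gave p = 1. Among the other 757 genes, 7% had a ratio to BCL2L1 that was higher in all aCT1 samples than in all CTL samples, and 9.03% did so among those with a mean of at least 50 normalized counts. In all, 9 ratios between members were computed, and the p-values are unadjusted.

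Ratios to BCL2 followed the scatter of BCL2. BAX to BCL2 was 219.8, 221 and 131 in CTL and 111.5, 443 and 224 in aCT1. The highest and the lowest value both belonged to the aCT1 group, as they also did for BBC3 to BCL2 and BAD to BCL2. None of these ratios was higher in all aCT1 samples, and 0.793% of the other genes had a ratio to BCL2 that was. Among genes with a mean of at least 50 normalized counts the share was 0%, so the overlap is not particular to the members. The differences of the BAX, BBC3 and BAD ratios to BCL2 were 0.27, 0.41 and 0.21 on the log2 scale, with standard errors of 0.63, 0.63 and 0.64. Exact permutation tests gave p = 0.7, 0.6 and 1, and without aCT1 replicate 2 the differences became -0.23, -0.12 and -0.30. They were also below 0, at -0.39, -0.23 and -0.44, when the median of the lymphoid and mast cell genes was subtracted as background. Values under 1 after subtraction were set to 1. This floor stood in for BCL2 in CTL replicate 1 and aCT1 replicate 2, where 8 and 13 of those 15 genes were at or above BCL2. The subtracted differences therefore rest on the floor in those samples.

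**Figure D4:**
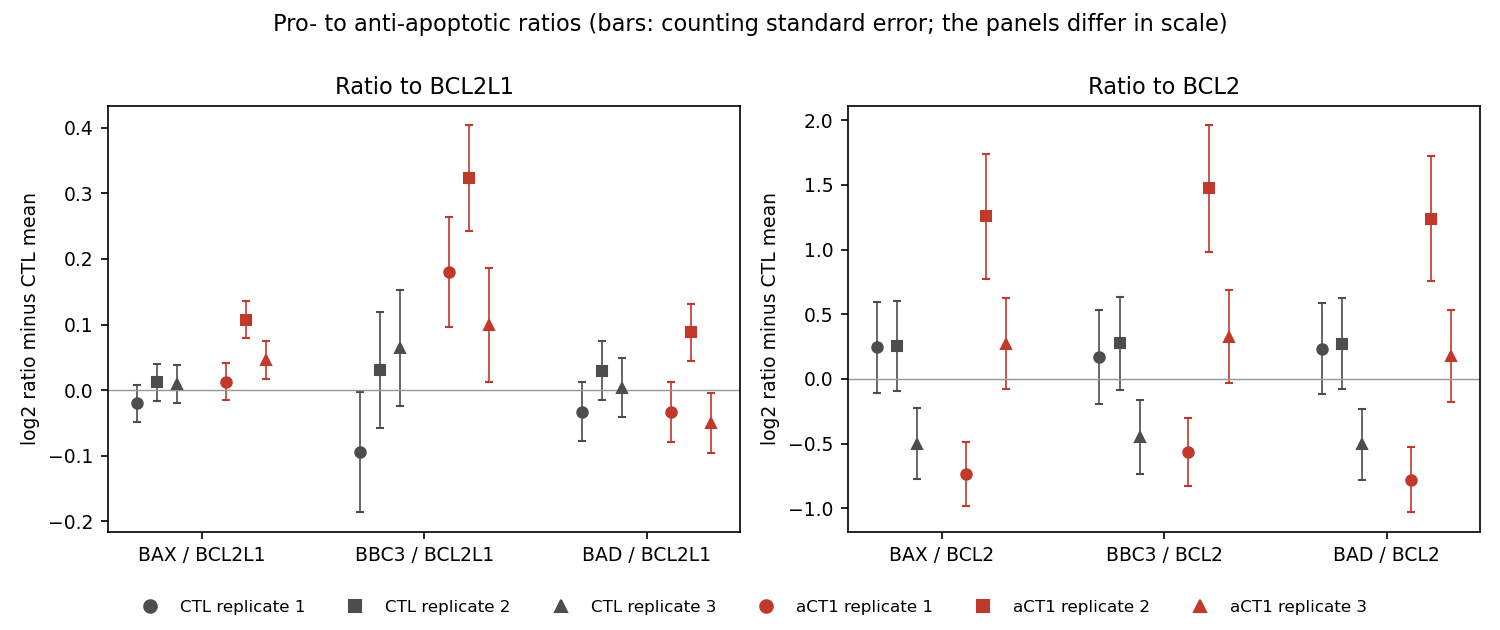
Log2 ratio of each pro-apoptotic member to BCL2L1 (left) and to BCL2 (right) in each sample, less the mean of the CTL samples; bars are the counting standard error and the panels differ in scale. Against BCL2L1, aCT1 samples reach 0.107 for BAX and 0.323 for BBC3 while BAD overlaps, and against BCL2 the aCT1 samples fall on both sides of the CTL samples for all 3 genes.

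When the 3 pro-apoptotic genes were averaged on the log2 scale and set against BCL2L1 alone, the balance relative to the CTL mean was -0.050, 0.024 and 0.025 in CTL and 0.053, 0.17 and 0.032 in aCT1. aCT1 replicate 2 stood highest, and aCT1 replicate 3 lay closest to the CTL samples. The difference was 0.086, and 0.042 without aCT1 replicate 2. With BCL2 included, the difference was 0.19, but the CTL samples had an SD of 0.20 and the aCT1 samples an SD of 0.54. As a plain sum of normalized counts, which weights each gene by its probe, pro-apoptotic over anti-apoptotic transcripts came to 0.669, 0.689 and 0.685 in CTL and 0.685, 0.739 and 0.695 in aCT1, and the groups overlapped.

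The log2 differences of the pro-apoptotic members were unequal in these samples, but whether they truly differ in size was not resolved. BBC3 to BAX was 0.15 higher in aCT1 on the log2 scale (standard error 0.062), with overlapping groups and an exact permutation p of 0.2. BBC3 to BAD was 0.20 higher (standard error 0.044) and BAX to BAD 0.054 higher (standard error 0.024). Each had all aCT1 samples above all CTL samples and an exact permutation p of 0.1, the smallest that 3 against 3 allow. These standard errors are from the replicates, and counting alone gives larger ones, 0.077 for BBC3 to BAD and 0.039 for BAX to BAD. The share of all genes with such a ratio to BAD was not computed. The log2 values of BAX and BBC3 had a Pearson r of 0.88 over the 6 samples. That r spans both groups, so it includes the group difference for which the study had picked both genes, and the scaling of each sample. aCT1 replicate 2 had the highest value of BAX, BBC3 and BAD and the lowest of BCL2. It also had the highest median log2 value over all genes of the table, 7.48, where the other samples had 7.29 to 7.43, and the part of this in the members' values was not tested.

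By the same correlation over the 6 samples, the genes with the pattern most like BAX, of 432 others with a mean of at least 50 normalized counts, were CKS1B (r = 0.98), SNAI1 (0.98) and PTCH1 (0.96). CKS1B is a partner of cyclin-dependent kinases and of the SKP2 ligase. The genes nearest to BBC3 were TBX1 (0.98), RARRES3 (0.97) and CDKN1B (0.97), the last of which encodes the cell cycle inhibitor p27. For BAD they were PSAT1 (0.98), BTG2 (0.97) and KIAA0040 (0.95), and for BCL2L1 they were GPX3 (0.95), CAV1 (0.95) and PARP2 (0.94). Each is the highest of many correlations over 6 points that share the group difference and the scaling of each sample.

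In the human genome (build GRCh38.p14), BAX lies on chromosome 19 from 48954875 to 48961798 on the forward strand, and BBC3 on the same chromosome from 47220824 to 47232860 on the reverse strand. BAD lies on chromosome 11 from 64269828 to 64284704, BCL2L1 on chromosome 20 from 31664452 to 31723963, and BCL2 on chromosome 18 from 63123346 to 63320090. The sequences before the start sites of BAX and BBC3 are shown because these were the members with separate groups. For BAX this is chr19:48954625-48954874, the 250 bases before its start, which overlap no annotated gene. For BBC3 the window before its listed start is chr19:47232668-47232917, of which 193 bases lie inside the annotated gene, and the other 57 bases, chr19:47232861-47232917, are shown. Capitals mark E-boxes (CANNTG, the binding word of MYC and other basic helix-loop-helix factors) and the GC box (GGGCGG on either strand), and the sequences are from RefSeq, 5′ to 3′ on the strand of the gene:
BAX: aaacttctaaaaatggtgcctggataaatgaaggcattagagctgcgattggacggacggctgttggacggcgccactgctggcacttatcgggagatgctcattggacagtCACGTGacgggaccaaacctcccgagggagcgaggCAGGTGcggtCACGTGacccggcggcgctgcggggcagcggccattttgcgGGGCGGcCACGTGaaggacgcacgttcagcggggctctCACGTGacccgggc
BBC3: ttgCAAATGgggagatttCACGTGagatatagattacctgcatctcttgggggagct

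The BAX window held 5 E-boxes, of which 4 had the form CACGTG, and 1 GC box. The BBC3 window of 250 bases held 2 E-boxes, of which 1 had the same form. This form, which is itself an E-box and reads the same on both strands, occurred in 6.34% of the 35116 windows of that length before annotated starts, and any E-box in 61.8%. Windows of BAD, BCL2L1 and BCL2 held no CACGTG, which most windows lack. A GC box occurred in 42.6% of all windows, and each BAD window held one too. The consensus of a p53 half-site, with no mismatch allowed and on either strand, was not found in the windows of the 5 members and occurred in 5.57% of all windows. These are matches of letters in a short window, and no binding was measured here.

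Of the other genes around this family, 27 of 85 in the 6 lists chosen were measured. In limma, 0 of the 27 had an adjusted p under 0.05, where 0% of all genes did, and 2 had an unadjusted p under 0.05, both higher in aCT1. That is close to the share of all genes, 9.37% in either direction and 6.46% higher in aCT1. In all, 22 were higher and 5 lower in aCT1, with a median log2 fold change of 0.038, while 446 of all 758 genes were higher and 312 lower. These counts follow the deposited scaling. Centring on the median gene, with its shift of 0.098 for every gene, puts MDM2 and SFN below 0 as it does BAX, and leaves BBC3 at 0.12.

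The p53 axis was the list with the most genes measured, 10 of 16 and 8 of these had the higher mean log2 value in aCT1. The 2 genes with an unadjusted p under 0.05 are in it. MDM2, a p53 target that in turn degrades p53, had 5945, 5850.4 and 5628 normalized counts in CTL and 6172, 6069.6 and 6121 in aCT1. Its groups did not overlap, and the log2 fold change of MDM2 was 0.076 (95% interval 0.015 to 0.14) with a limma adjusted p of 0.334. SFN, another p53 target, had 20272 ± 414 normalized counts in CTL and 21137 ± 444 in aCT1 (SD, n = 3 each), with separate groups. SFN had an adjusted p of 0.439 in limma and a log2 fold change of 0.060. GADD45A, a p53 target induced by DNA damage, had 1395 ± 61.8 in CTL and 1343 ± 59.0 in aCT1, with overlapping groups and a log2 fold change of -0.055.

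Of the kinases known to phosphorylate BAD, 5 of 10 were measured and all 5 were higher in aCT1, with 0 past either threshold and a median log2 fold change of 0.042. PIM1 had a log2 fold change of 0.11 (95% interval -0.030 to 0.25), and PRKACA, the catalytic subunit of protein kinase A, one of 0.042. Of transcription factors linked to BCL2 and BCL2L1, 3 of 10 were measured. GATA3 had a log2 fold change of 0.052. ESR1, the estrogen receptor that drives BCL2 in luminal tumors, had 106, 104 and 137 normalized counts in CTL and 134, 134.5 and 127 in aCT1, with overlapping groups and a log2 fold change of 0.20 (95% interval -0.069 to 0.48).

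Among survival proteins and effectors downstream of the mitochondrion, 3 of 11 were measured. BAG1, a BCL2-binding cochaperone, had a log2 fold change of 0.051 (95% interval -0.029 to 0.13), BIRC5, which encodes survivin, one of 0.021, and PARP1, a caspase substrate, one of -0.0037. Of death receptor and caspase genes, 4 of 23 were measured. TNF had 131 ± 12.2 normalized counts in CTL and 138 ± 21.5 in aCT1 (SD, n = 3 each), and PYCARD, an adaptor of the inflammasome, had 86.4 ± 8.34 and 81.1 ± 9.10, both with overlapping groups. Of 15 other BCL2 family genes, 2 were measured. BNIP3, a mitochondrial protein induced by hypoxia, had a log2 fold change of 0.026 (95% interval -0.14 to 0.19), and BCL2A1 had a mean under 50 normalized counts.

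**Figure D5:**
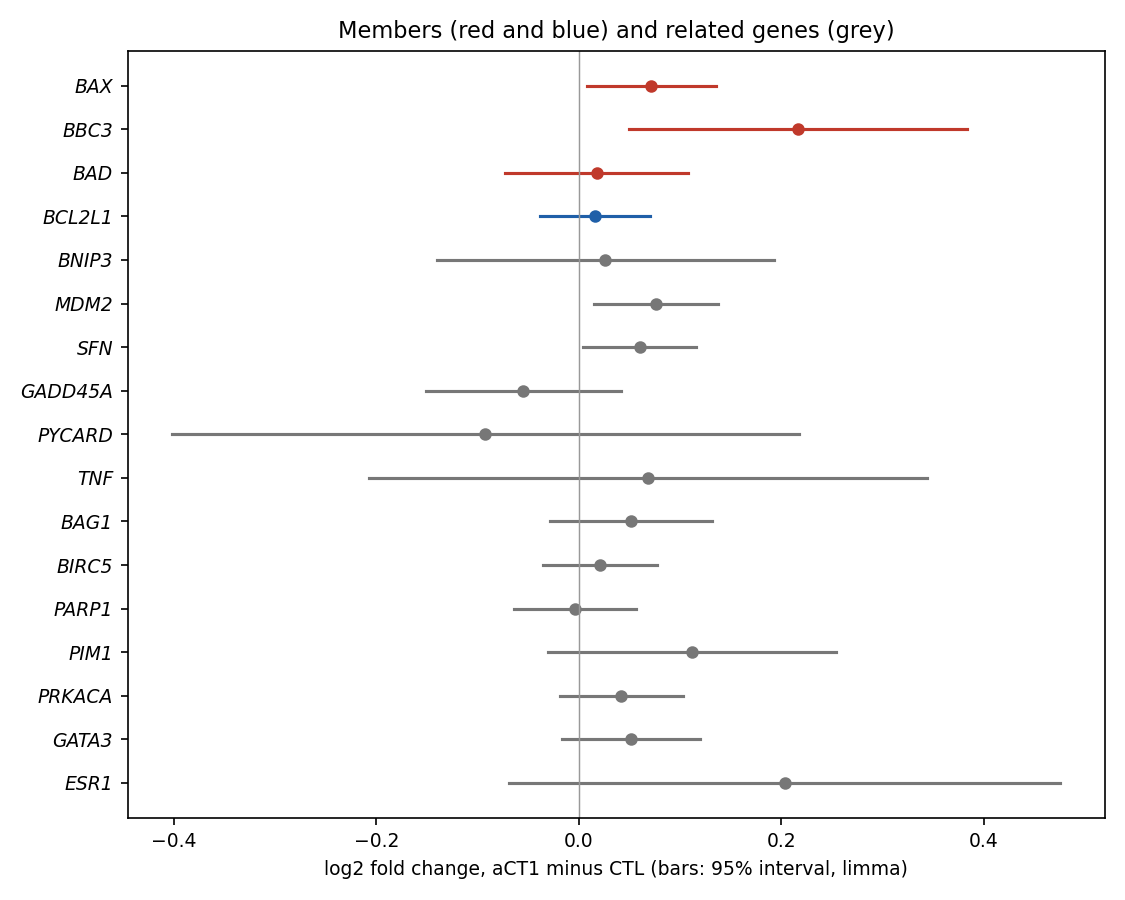
Log2 fold change of aCT1 against CTL (horizontal axis) with its 95% interval from limma for 4 members and for the genes named from the related lists; BCL2 is left out because its interval, -1.10 to 0.71, exceeds the axis. The intervals of BAX, BBC3, MDM2 and SFN lie above 0 under the authors' scaling and before adjustment for the number of genes tested, and all others include 0.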

How the data were processed

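RNA of 3 CTL and 3 aCT1 samples of JIMT-1 was measured with a breast cancer gene panel on the nCounter instrument. Per the study's methods, the authors used nSolver to scale barcode counts to housekeeping genes. The deposited table gives 758 genes, each as a linear signal and as the log2 of it. A background subtraction or scaling to positive controls is not given in the sources used here. Within each sample every linear value was a whole multiple of 1 factor (100% of values, tolerance 0.001), which gave back the barcode counts. Values were fitted with limma 3.58.1 (R 4.3.3), aCT1 against CTL, with a variance trend, because genes at background and genes with many counts were fitted together. Tests were two-sided, with Benjamini-Hochberg adjustment over all 758 genes and a threshold of 0.05. The study's supplement lists 459 of these genes, without BCL2, and a fit to those alone was an alternative. Intervals are 95% intervals from limma. Counting errors cover counting alone. edgeR 4.0.16 and DESeq2 1.42.0 were run on the recovered counts as alternatives, and the fit was checked on simulated counts with known changes. Promoter windows and gene positions came from RefSeq (GRCh38.p14), where 749 of the 758 names matched a current symbol, all 5 members among them. The genes named from each related list were the 3 with the smallest p among those with a mean of at least 50 normalized counts, of which 1 is not reported here. The genes most like a member were the 3 with the highest Pearson r. The members and the lists were chosen with earlier results of these data known. The study's own fold changes and p-values were not used.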

Additional observations from a re-analysis of the deposited data

How the results depend on the processing

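The alternatives changed 1 choice each, except that DESeq2 changed both the test and the scaling, since it used its own size factors. No member had an adjusted p under 0.05 in any of them, and the lowest adjusted p was 0.186 for BAX (quantile normalization) and 0.195 for BBC3 (genes with a mean of at least 50). BBC3 kept its direction in all 18, with log2 fold changes from 0.12 to 0.26 and an unadjusted p under 0.05 in 13. Median centring and quantile normalization each put BBC3 at 0.12, with limma unadjusted p-values of 0.191 and 0.0874. BAX kept its direction in 17 of 18, with an unadjusted p under 0.05 in 11, of which 2 were among the 6 fits that left out 1 sample. Centring on the sample medians takes the same 0.098 from every gene and so turned BAX to -0.026, BAD to -0.080 and BCL2L1 to -0.082. Quantile normalization turned BAD to -0.0025, and subtracting the median of the lymphoid genes turned BCL2 to 0.46. In that subtraction BCL2 was set to the floor of 1 in CTL replicate 1 and aCT1 replicate 2. With 1 sample left out, BAD ranged from -0.016 (without aCT1 replicate 2) to 0.038, BCL2 from -0.68 (without aCT1 replicate 1) to 0.29, BAX from 0.056 to 0.088, BBC3 from 0.17 to 0.26 and BCL2L1 from 0.0099 to 0.026. Listed genes alone and the filter at 50 gave no value for BCL2. The number of genes with an adjusted p under 0.05 was 1 without the variance trend, 1 over listed genes, 1 with the filter at 50, 1 with background subtracted, 2 with DESeq2 and 6 with quantile normalization. Leaving out 1 sample gave 0 to 1 genes. For all of these, the cause was not tested.

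A paired fit, with a replicate block, gave 1 gene with an adjusted p under 0.05, an unadjusted p of 0.0447 for BAX and the same fold changes. Samples of 1 number in both groups deviated from the mean of their group with correlations of 0.078, 0.192 and -0.231 over 433 genes, so the numbers were not taken to pair the samples. The differences in the ratios to BCL2L1 ranged, with 1 sample left out, from 0.029 to 0.077 for BAX, from 0.14 to 0.25 for BBC3 and from -0.042 to 0.027 for BAD. The balance with BCL2L1 alone ranged likewise from 0.042 to 0.11, an alternative chosen after seeing the data. With background subtracted, the ratios of BAX, BBC3 and BAD to BCL2 turned to -0.39, -0.23 and -0.44 and the balance with BCL2 to -0.13. These values also hold BCL2 at the floor of 1 in CTL replicate 1 and aCT1 replicate 2. BCL2 had at most 34 barcodes, and its spread exceeded the counting error.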
